A study of Arabidopsis thaliana and Arabidopsis lyrata subsp. lyrata and Arabidopsis halleri subsp. gemmifera with 10 samples.

Results

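COR15A, COR15B, COR47 and LTI30 are 4 cold-response genes of Arabidopsis, followed here in mature leaves of 2 interspecific hybrids and 3 species. They were chosen by name, as the probe sets annotated to each of these single genes. Each has 1 probe set among the 22746 non-control probe sets of the ATH1 array, whose probes were designed on A. thaliana. The groups are the A. thaliana-A. halleri hybrid, the A. thaliana-A. lyrata hybrid, A. halleri ssp. gemmifera, A. lyrata ssp. lyrata and A. thaliana of the Col accession. All plants grew at 22 C with 16 h of light, so no group was treated with cold, and leaves were taken before flowering. Each group has 2 biological replicates with 1 array each, 10 arrays in all. The cross direction and ploidy of the hybrids, the plants' ages and the number of plants per sample are unknown here. The hybrids carry A. thaliana alleles beside those of the other parent, and an array signal sums over both.

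Cold activates the transcription factors of the CBF family, which bind a short promoter element and switch on the COR genes. In A. thaliana these genes also answer to drought and abscisic acid, and the circadian clock gates their response. COR15A and COR15B encode close relatives imported into the chloroplast, where they protect membranes during freezing. COR47 and LTI30 encode dehydrins, hydrophilic proteins that protect membranes and other proteins in dehydrated cells. COR15A and COR15B are neighbours in the A. thaliana genome, with 0 annotated genes between them.

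Signals are given in arbitrary units after each array was scaled to a mean of 500, trimmed by 2% at each end. Differences are log2 values ± SE from a limma fit to log2(signal + 9.24), which understates changes of weak signals, and a probe set is called at an adjusted p below 0.05. In the deposited values, 5 arrays had a trimmed mean of 500 and the other 5 ranged from 24.3 to 136. The lower set holds both arrays of the A. lyrata hybrid, both of A. lyrata and A. thaliana replicate 2. Only A. thaliana has arrays of both scales, so a block for deposited scale is estimated from its 2 replicates alone. In comparisons with A. thaliana that block gives the same value as the arrays of 1 deposited scale. Leaving out the A. thaliana array of the other scale gives it too, so these are not separate checks. A. halleri and A. lyrata differ in deposited scale on all arrays, and so do the hybrids. The 18 spike-in control probe sets were slightly brighter in the A. halleri hybrid, 1.79-fold in the A. lyrata hybrid, 2.49-fold in A. halleri and 3.64-fold in A. lyrata than in A. thaliana. Every difference is thus relative to the average leaf signal of the arrays. For COR15A, COR15B and COR47, the differences of A. lyrata and A. halleri from A. thaliana are also given on the spike-in scale. Genes other than the 4 are given on the trimmed-mean scale only. A rise of such a gene over A. thaliana may depend on the scaling, which was not tested. A weaker signal outside A. thaliana can come from fewer transcripts or from sequence mismatch to the probes, and these cannot be told apart here. Nor can fewer cells of a type be told apart from less RNA per cell. The leaf marker RCA, the Rubisco activase, had signals of 26882 to 73049 on the 10 arrays. It was the 1 measured gene of 12 leaf markers. No flower or seed marker could be measured, and the 1 measured root marker of 6, PYK10, stayed between 3.04 and 136. RCA was higher than in A. thaliana in the A. lyrata hybrid (1.16 ± 0.24, adjusted p = 0.0172) and in A. lyrata (1.27 ± 0.24, 0.00312). PYK10 had 93.7 and 136 in A. lyrata and 3.19 and 3.04 in A. thaliana, and passed the filter through A. lyrata alone. The part of these markers in the results was not tested.

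COR15A was strongest in A. thaliana leaves and weakest in A. lyrata leaves. Its signals were 806 and 577 in the A. halleri hybrid, 468 and 692 in the A. lyrata hybrid, 783 and 1416 in A. halleri, 116 and 28.7 in A. lyrata, and 12117 and 2374 in A. thaliana. Both A. thaliana arrays lay above all others, and both A. lyrata arrays lay below all others. The A. halleri arrays overlapped those of its hybrid, and the arrays of the 2 hybrids overlapped each other. In A. lyrata the signal exceeded only 37.8% and 18.8% of the probe sets on its array, so that group is near the weak end of the measurable range. On the A. thaliana arrays it exceeded 99.2% and 93.6%.

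**Figure D1:**
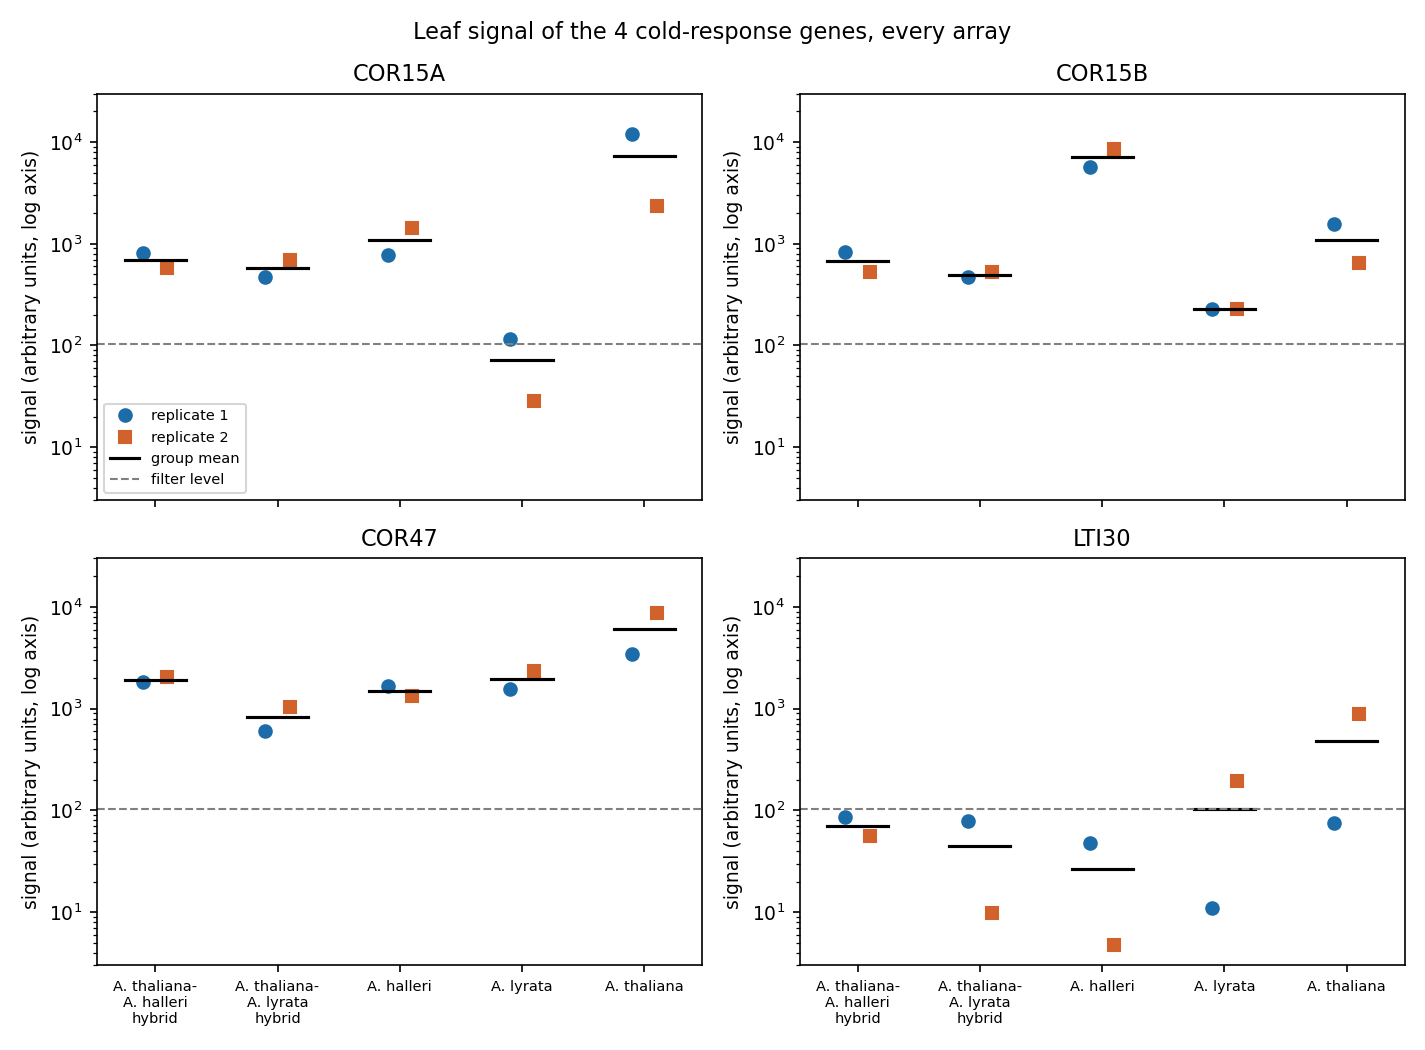
Scaled signal (arbitrary units, log axis) of COR15A, COR15B, COR47 and LTI30 on each of the 10 arrays, with circles for replicate 1, squares for replicate 2 and bars for group means. The dashed line marks the signal of 104 used as a filter. COR15B peaks in A. halleri, and COR15A and COR47 peak in A. thaliana. Most LTI30 points lie under the line, and its highest group mean rests on A. thaliana replicate 2.

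COR15A fell in A. lyrata, with 72.4 ± 61.9 against 7245 ± 6889 in A. thaliana (SD, n = 2 arrays each). The log2 difference was -6.28 ± 0.75 (adjusted p = 0.000323). Because the A. lyrata mean lies under the filter level of 104, its size depends on the offset, with -6.51 at an offset of 1 and -5.69 at the 25th percentile, both called. The call survived the omission of any single array, at -5.11 without A. thaliana replicate 1, -7.46 without A. thaliana replicate 2, -7.15 without A. lyrata replicate 1 and -5.42 without A. lyrata replicate 2. Within the arrays of lower deposited scale it was also -5.11, and on the spike-in scale -7.95, against a median over the array of -1.57. COR15A also fell in A. halleri against A. thaliana, to 1100 ± 448 (-2.34 ± 0.75, 5.06-fold lower, adjusted p = 0.0326). That call was lost without A. thaliana replicate 1 (-1.17, adjusted p = 0.172), A. halleri replicate 1 (-1.92, 0.166) or A. halleri replicate 2 (-2.76, 0.0694). It held without A. thaliana replicate 2 and within the arrays of higher deposited scale (-3.51 each), and on the spike-in scale (-3.65). Between the relatives, COR15A was higher in A. halleri than in A. lyrata (3.95 ± 0.75, adjusted p = 0.00784), at 4.16 and 3.38 with these offsets. The call was lost without A. lyrata replicate 2 (3.08, 0.0619), without A. halleri replicate 2 (3.52, 0.0649) and with the deposited scale as a block (1.60, 0.285), and it held at 4.81 without A. lyrata replicate 1.

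COR15B, the neighbour of COR15A, was ordered differently. Its signals were 834 and 533 in the A. halleri hybrid, 466 and 525 in the A. lyrata hybrid, 5729 and 8490 in A. halleri, 228 on each A. lyrata array, and 1552 and 644 in A. thaliana. Both A. halleri arrays lay above all others and both A. lyrata arrays below all others. The A. thaliana arrays overlapped those of the A. halleri hybrid, while the remaining neighbours in the order did not overlap. On its arrays the COR15B signal exceeded 97.6% and 98.5% of the probe sets in A. halleri, against 54.9% and 55.1% in A. lyrata and 89.7% and 76.4% in A. thaliana.

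COR15B rose in A. halleri, with 7109 ± 1952 against 1098 ± 642 in A. thaliana. The log2 difference was 2.79 ± 0.42, or 6.91-fold (adjusted p = 0.00112). It was 3.42 without A. thaliana replicate 1 and 2.16 without replicate 2, 2.16 within the arrays of higher deposited scale, and called under each of these. On the spike-in scale it was smaller, 1.48, and still called (adjusted p = 0.00822), against a median over the array of -1.02. In A. lyrata COR15B fell, to 228 ± 0.00919, and was 4.27-fold lower than in A. thaliana (-2.09 ± 0.42, adjusted p = 0.00381). The call held at -1.46 without A. thaliana replicate 1, the same value as within the arrays of lower deposited scale, at -2.72 without A. thaliana replicate 2 and at -3.90 on the spike-in scale. Between the relatives, COR15B was 29.5-fold higher in A. halleri than in A. lyrata (4.88 ± 0.42, adjusted p = 0.000158). It stayed called with each array left out (4.60 to 5.17) and with the deposited scale as a block (3.63).

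The 2 neighbouring genes therefore moved in opposite directions in A. halleri and in the same direction in A. lyrata, relative to A. thaliana. The fall of COR15A in A. halleri ranged from -3.51 to -1.17 with single arrays left out, and its call did not hold in all of these fits. The ratio of the 2 genes on an array does not depend on how the array is scaled. Since each probe set has its own brightness, the ratio is compared between groups only. A change between groups can still come from transcripts or from sequence mismatch to either probe set, which the ratio does not remove. The log2 ratio of COR15A to COR15B was -0.05 and 0.12 in the A. halleri hybrid, 0.0057 and 0.40 in the A. lyrata hybrid, -2.87 and -2.58 in A. halleri, -0.97 and -2.99 in A. lyrata, and 2.96 and 1.88 in A. thaliana. All 4 hybrid arrays lay between those of A. thaliana and those of the other parent. The ratio is given as a description, with no test.

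**Figure D2:**
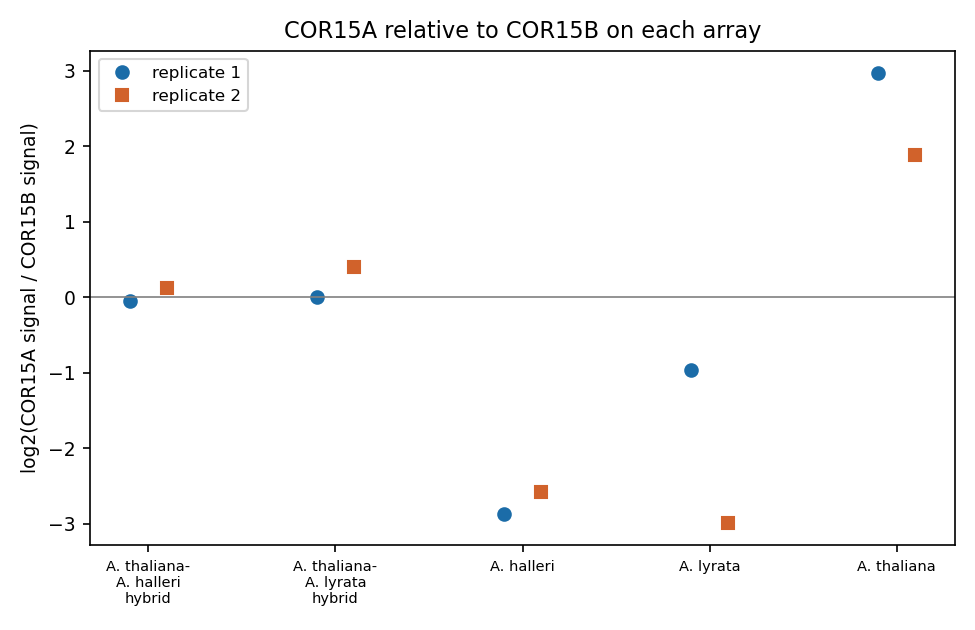
Log2 ratio of COR15A signal to COR15B signal on each of the 10 arrays, by group, with circles for replicate 1 and squares for replicate 2. Both A. thaliana arrays are above 1.8, the arrays of A. halleri and A. lyrata are below -0.9, and the 4 hybrid arrays lie from -0.05 to 0.40.

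COR47, a dehydrin gene known to respond to cold and drought, was strongest in A. thaliana and weakest in the A. lyrata hybrid. Its signals were 1811 and 2034 in the A. halleri hybrid, 597 and 1043 in the A. lyrata hybrid, 1682 and 1335 in A. halleri, 1579 and 2342 in A. lyrata, and 3484 and 8663 in A. thaliana. Both A. thaliana arrays lay above all others and both arrays of the A. lyrata hybrid below all others. The A. lyrata arrays overlapped those of the A. halleri hybrid and of A. halleri. The signal exceeded at least 78.9% of the probe sets on every array.

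COR47 fell in A. halleri, with 1509 ± 245 against 6073 ± 3662 in A. thaliana (-1.87 ± 0.44, 3.65-fold lower, adjusted p = 0.00904). It was called at -2.52 without A. thaliana replicate 1, and at -1.21 without A. thaliana replicate 2 and within the arrays of higher deposited scale. It was lost without A. halleri replicate 2 (-1.70, adjusted p = 0.0629). In A. lyrata COR47 fell to 1960 ± 540, 2.85-fold lower than in A. thaliana (-1.51 ± 0.44, adjusted p = 0.0203). This call was lost without A. thaliana replicate 2 (-0.85, adjusted p = 0.0933) and without A. lyrata replicate 1 (-1.23, 0.122). It held at -2.17 without A. thaliana replicate 1 and, equally, within the arrays of lower deposited scale. On the spike-in scale the differences were -3.18 for A. halleri and -3.37 for A. lyrata, both called. A. halleri and A. lyrata were not shown to differ in COR47 (-0.36 ± 0.44, adjusted p = 0.618).

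LTI30, a dehydrin gene named for its induction by low temperature, was weak on most arrays. Its signals were 85.3 and 55.8 in the A. halleri hybrid, 79.0 and 9.77 in the A. lyrata hybrid, 48.3 and 4.74 in A. halleri, 11.1 and 195 in A. lyrata, and 75.1 and 895 in A. thaliana. Replicate 2 of A. thaliana stood above all other arrays, and its replicate 1 lay among them. Every pair of neighbours in the order of group means overlapped. LTI30 passed the filter on low signal through A. thaliana alone. It was called in none of the 10 comparisons (adjusted p from 0.0798 to 0.828). In limma, 1 of the 10 had an unadjusted p under 0.05, A. halleri against A. thaliana (-3.28 ± 1.36, adjusted p = 0.0798). Since A. thaliana alone carried LTI30 past the filter, through the 1 array at 895, its differences from A. thaliana are given as a description and nothing is read from calls that other settings make.

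In all, 3 of the 4 genes were called between A. halleri and A. thaliana, where 39.7% of the 16679 probe sets tested were called. Between A. lyrata and A. thaliana it was 3 of 4, all lower, with 43.0% of all probe sets called in either direction. In that comparison 2869 of the 16679 probe sets were called lower and 4301 higher. Between A. halleri and A. lyrata 2 of 4 were called, with 15.5% of all probe sets. With so much of the array called against A. thaliana, 3 of 4 genes called in either direction is not set apart from the background. Whether 3 of 4 called lower in A. lyrata is set apart was not tested. All comparisons with A. thaliana share its 2 arrays.

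The 2 A. thaliana arrays differed from each other in each of the 4 genes, and not in the same direction. On the log2 scale, replicate 1 minus replicate 2 was 2.35 in COR15A and 1.26 in COR15B, but -1.31 in COR47 and -3.42 in LTI30. Of the 16679 probe sets tested, 3.59% differed more between these replicates than COR15A, 19.0% more than COR15B, 17.5% more than COR47 and 0.959% more than LTI30. GI, the 1 measured gene of 13 clock genes, had 162 on replicate 1 and 1162 on replicate 2. Its part in the differences was not tested. The 2 arrays also differ in deposited scale.

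In the A. lyrata hybrid, COR15A and COR47 fell against A. thaliana, and COR15A rose against A. lyrata. COR15A averaged 580 ± 158 in the hybrid, 9.29-fold lower than in A. thaliana (-3.22 ± 0.75, adjusted p = 0.0253) and higher than in A. lyrata (3.07 ± 0.75, adjusted p = 0.0206), where the weak A. lyrata signal again makes the size depend on the offset (2.54 to 3.27). The first call was lost without hybrid replicate 1 (-2.94, 0.170), without hybrid replicate 2 (-3.49, 0.0786) and within the arrays of lower deposited scale (-2.04, 0.0803). It held at -2.04 without A. thaliana replicate 1 and -4.39 without replicate 2. The second was lost without A. lyrata replicate 2 (2.21, 0.128) and without either hybrid array (3.35 and 2.79, adjusted p = 0.0787 and 0.101), and was 3.93 without A. lyrata replicate 1. COR47 averaged 820 ± 315, 6.89-fold lower than in A. thaliana (-2.78 ± 0.44, adjusted p = 0.00585). It was called at -3.44 without A. thaliana replicate 1 and -2.13 without replicate 2, and lost without hybrid replicate 1 (-2.39, 0.0650). COR47 also lay below both A. lyrata arrays without being called (-1.27 ± 0.44, adjusted p = 0.0659), and the result depended on the setting. It was -0.26 on the spike-in scale (adjusted p = 0.730), while 4 of 13 alternative settings called it, among them the deposited scale as a block (-1.27, 0.0134), and so did 2 of 10 fits that left out 1 array. COR15B averaged 496 ± 41.3 in the hybrid, and its arrays lay between those of the parents, with no call against A. thaliana (-1.003 ± 0.42, adjusted p = 0.147) or A. lyrata (1.09 ± 0.42, 0.0905). On the spike-in scale both COR15B differences were called (-1.84 and 2.06), and the first also without A. thaliana replicate 2 (-1.63, 0.0230). The second was called in 4 of 13 alternative settings, spike-in scale included, and in 2 of 10 fits that left out 1 array, those without either A. thaliana array. In comparisons of the hybrid with A. lyrata, leaving out an A. thaliana array changes only the estimate of the spread. Thus 2 of 4 genes were called against A. thaliana, where 11.5% of all probe sets were, and 1 of 4 against A. lyrata, where 20.5% were.

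In the A. halleri hybrid, COR15A fell against A. thaliana and COR15B fell against A. halleri. COR15A averaged 692 ± 162, 7.78-fold lower than in A. thaliana (-2.96 ± 0.75, adjusted p = 0.0485). The call lies at the threshold and held in 3 of 10 fits that left out 1 array, with adjusted p up to 0.253, among them -4.13 without A. thaliana replicate 2. It was lost without A. thaliana replicate 1 (-1.79, 0.0952) and without either hybrid array (-3.20 and -2.72). Against A. halleri COR15A was not called (-0.62 ± 0.75, adjusted p = 0.597). COR15B averaged 684 ± 213, 10.3-fold lower than in A. halleri (-3.37 ± 0.42, adjusted p = 0.00119), and the call held with each array left out (-3.69 to -3.05) and on the spike-in scale (-2.32). Against A. thaliana COR15B was not called (-0.58 ± 0.42, adjusted p = 0.432). COR47 averaged 1922 ± 158 and was called against neither parent (-1.51 ± 0.44 with adjusted p = 0.0732 for A. thaliana, 0.35 ± 0.44 with 0.607 for A. halleri). Its difference from A. thaliana was called without A. thaliana replicate 1 (-2.17, 0.00576) and with arrays scaled to the median (-1.71, 0.0430). So 1 of 4 genes was called against A. thaliana, where 5.99% of all probe sets were, and 1 of 4 against A. halleri, where 15.0% were.

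**Figure D3:**
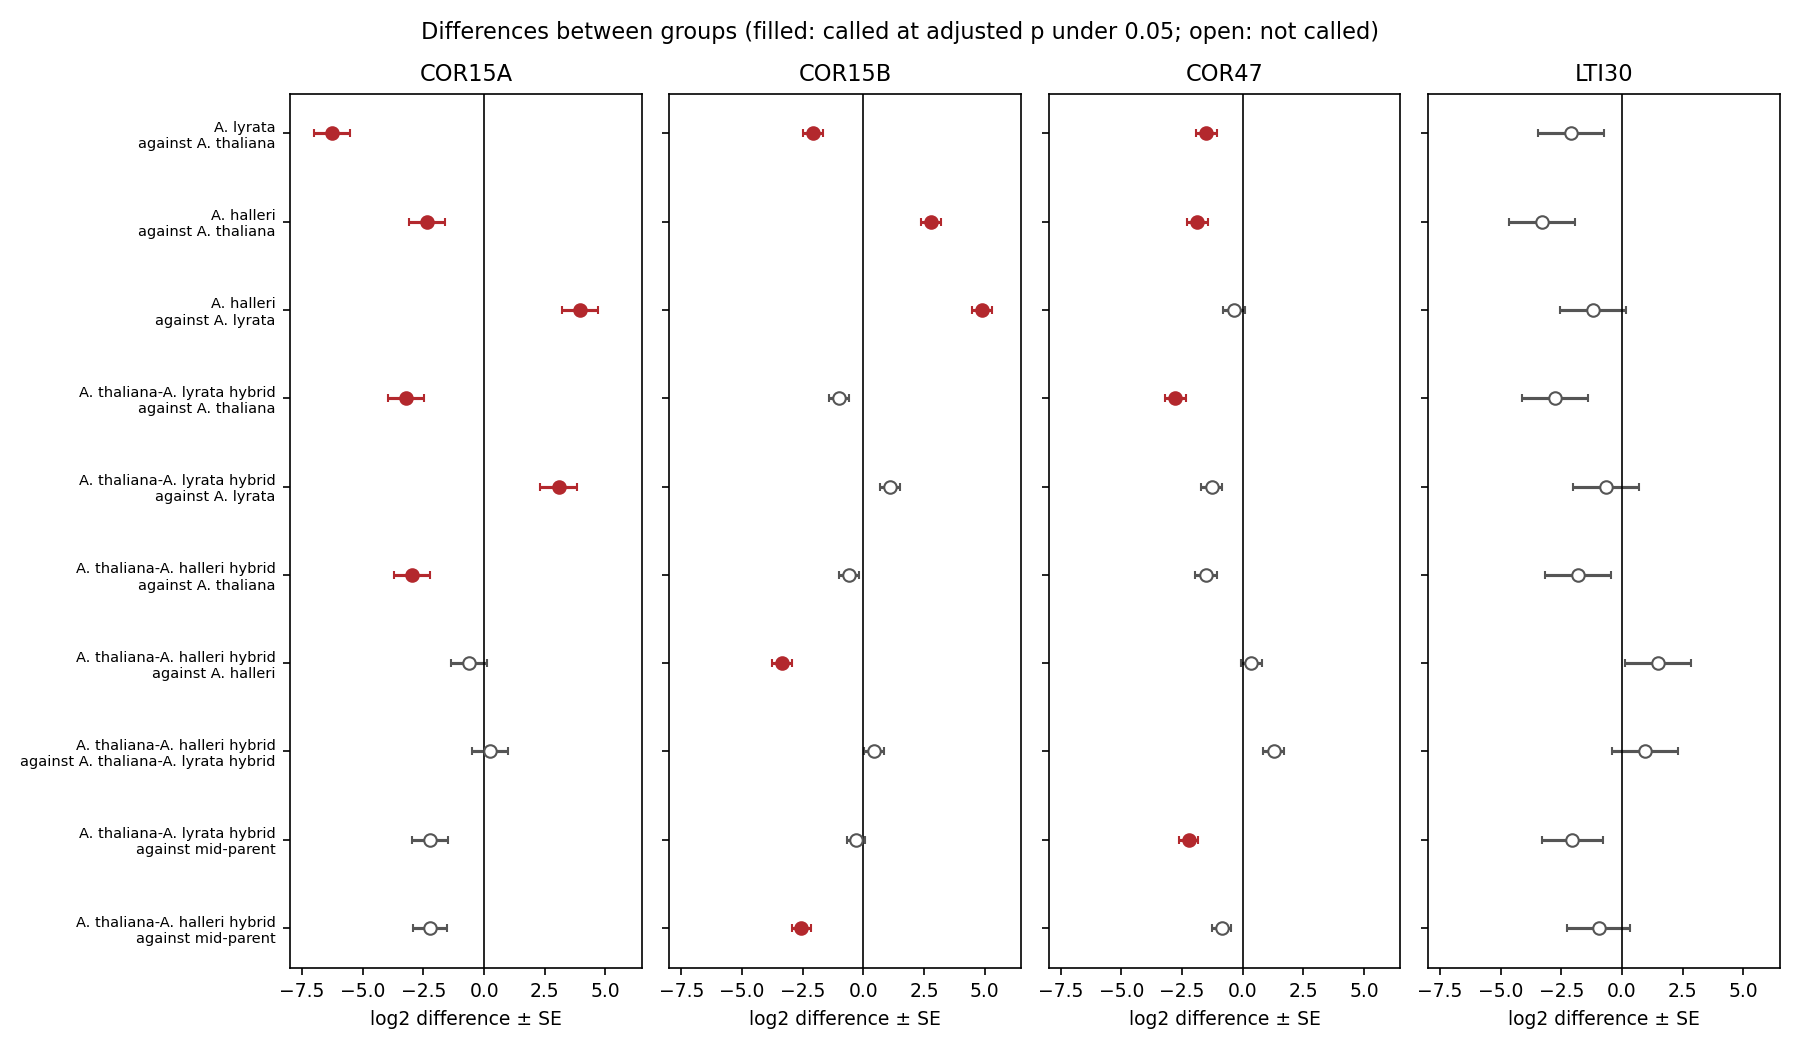
Log2 differences ± SE (limma, 10 arrays) of the 4 genes in the 10 comparisons, each named as the group on top of the difference against the other. Filled points are called at an adjusted p below 0.05; COR15B is higher in A. halleri than in A. thaliana and A. lyrata, COR15A lower than A. thaliana in the other 4 groups, and LTI30 is called in no comparison.

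The mid-parent level is a yardstick for a hybrid that simply averages its parents. In the fit, each parent's mean log2 value was taken back to the linear scale, and the 2 parents were averaged there. The mid-parent signals of 4017 and 4104 given below are plain means of the parents' mean signals and differ somewhat from the fitted level. In the A. lyrata hybrid the dehydrin gene COR47 lay below mid-parent, at 820 against 4017, which is 4.65-fold lower in the fit (-2.22 ± 0.39, adjusted p = 0.0164). The call was lost without hybrid replicate 1 (-1.82, 0.186). It was the only call among the 4 genes in that hybrid, where 5.38% of all probe sets were called. In the A. halleri hybrid COR15B lay below mid-parent, at 684 against 4104 (-2.56 ± 0.39, 5.91-fold lower, adjusted p = 0.0254), the only call among the 4 genes, with 1.09% of all probe sets called. That call held in 2 of 10 fits that left out 1 array, with adjusted p up to 0.232 and values from -2.88 to -2.24, and was -1.76 on the spike-in scale. COR15A was below mid-parent on both arrays of each hybrid, and was not called (-2.22 ± 0.69, adjusted p = 0.158, in the A. halleri hybrid and -2.23 ± 0.74, 0.111, in the A. lyrata hybrid). Without A. thaliana replicate 2 both COR15A deviations were called (-3.25 and -3.40). The first was also called with the deposited scale as a block and within the arrays of higher scale (-3.25 each), and the second on the spike-in scale (-3.06, 0.0276). Without A. thaliana replicate 1 the deviation of COR47 in the A. halleri hybrid was called (-1.40, 0.0372, against -0.86 ± 0.40). With the parents averaged on the log2 scale, which weights the weaker parent more, COR15A was at -0.07 in the A. lyrata hybrid.

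A call in 1 hybrid does not show that the hybrids differ, so the difference of their deviations from mid-parent was tested too, where 1.04% of all probe sets were called. It is given for COR15B and COR47 alone, the 2 genes called against mid-parent in 1 hybrid in these same data. The difference was -2.26 ± 0.53 for COR15B (adjusted p = 0.0975) and 1.36 ± 0.45 for COR47 (adjusted p = 0.268), and neither was called. Both were called with the deposited scale as a block (-2.84 and 2.36), and COR15B also without A. thaliana replicate 1 (-2.68) or replicate 2 (-1.83). On the spike-in scale the COR15B difference was -0.83 (adjusted p = 0.392) and that of COR47 1.84 (0.0992). Between the hybrids themselves 0 of the 4 genes were called by limma, with 2.66% of all probe sets called, and 1 of 4, COR47, had an unadjusted p under 0.05. COR47 was 2.41-fold higher in the A. halleri hybrid than in the A. lyrata hybrid, with arrays that did not overlap (1.27 ± 0.44, adjusted p = 0.192). It was called without either A. thaliana array, which leaves the value at 1.27 and changes only the estimate of the spread. With the deposited scale as a block it was called at 2.58 (adjusted p = 0.0191). That block takes out the difference between the A. thaliana replicates (-1.31 in COR47). Neither setting adds data on the hybrids. The hybrids' COR15A signals overlapped (0.26 ± 0.75, adjusted p = 0.930).

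Beyond these 4 genes, 5 lists of cold-pathway regulators, other cold-regulated genes, other dehydrins, abscisic acid and drought genes and clock genes hold 105 genes. Only 11 had a probe set named in the annotation used here, and 5 of these passed the filter. CBF1, CBF2, CBF3, ICE1 and ERD10 were not among the named ones. The 6 genes that did not pass, among them COR27, COR28 and LEA4-5, had signals of 2.16 to 136.

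Among the other dehydrins 4 of 8 had a probe set, and HIRD11, a histidine-rich dehydrin, was the 1 tested. Its signals were 8069 and 8145 in the A. halleri hybrid, 12867 and 22886 in the A. lyrata hybrid, 162 and 175 in A. halleri, 15785 and 21281 in A. lyrata, and 22647 and 17518 in A. thaliana. HIRD11 fell in A. halleri, 112-fold against A. thaliana (-6.81 ± 0.31, adjusted p = 2.96e-06) and 103-fold against A. lyrata. In the A. halleri hybrid it was 45.8-fold above A. halleri (5.52 ± 0.31, adjusted p = 1.83e-05) and 2.46-fold below A. thaliana (adjusted p = 0.0413), and close to mid-parent (-0.31 ± 0.31, adjusted p = 0.683). HIRD11 was not called between A. lyrata and A. thaliana (-0.12 ± 0.31). Among the dehydrin genes measured, the log2 difference of A. halleri from A. thaliana was -6.81 in HIRD11, -1.87 in COR47 and -3.28 in LTI30, and that of A. lyrata was -0.12, -1.51 and -2.10. Differences between these genes were not tested.

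Of 30 cold-pathway regulators 3 had a probe set named, all tested. STZ, a zinc-finger repressor induced by cold and other stresses, had 8173 and 4486 in the A. halleri hybrid, 105 and 259 in the A. lyrata hybrid, 4354 and 5496 in A. halleri, 7328 and 772 in A. lyrata, and 7060 and 12765 in A. thaliana. STZ fell in the A. lyrata hybrid, 54.2-fold against A. thaliana (adjusted p = 0.00479), 13.7-fold against A. lyrata (0.0160) and 33.9-fold against mid-parent (-5.08 ± 0.79, adjusted p = 0.0110). COR47 was lowest in the same hybrid, and a link between STZ and COR47 was not tested. SIZ1, a SUMO ligase that stabilises the CBF activator ICE1, was called on different probe sets in different comparisons. The first probe set was higher in A. halleri than in A. thaliana (1.99 ± 0.64, adjusted p = 0.0331). The other was lower in A. lyrata than in A. thaliana (-1.35 ± 0.41, 0.0238) and higher in A. halleri than in A. lyrata (1.56 ± 0.41, 0.0298). The third regulator, EIN3, was called in none of the species or mid-parent comparisons. Over these 4 probe sets of 3 genes, 1 was lower and 0 higher in A. lyrata against A. thaliana, where 43% of all probe sets were called. Their median was -1.25 on the log2 scale, and that of the array was 0.31. In A. halleri against A. thaliana 1 was higher and 0 lower (median 0.10, array 0.32), where 39.7% of all probe sets were called. These counts do not set the regulators apart from the background.

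The clock gene GI had 462 and 439 in the A. halleri hybrid, 557 and 447 in the A. lyrata hybrid, 1695 and 1628 in A. halleri, 1033 and 1140 in A. lyrata, and 162 and 1162 in A. thaliana. GI rose in A. halleri against A. thaliana (1.90 ± 0.68, adjusted p = 0.0486) and was not called in A. lyrata (1.29 ± 0.68, 0.146). WRKY53, the 1 measured senescence marker of 5, had 713 and 272 in the A. halleri hybrid, 95.0 and 123 in the A. lyrata hybrid, 129 and 136 in A. halleri, 79.7 and 137 in A. lyrata, and 955 and 1623 in A. thaliana. WRKY53 fell in A. halleri (-3.14 ± 0.49, adjusted p = 0.00143), in A. lyrata (-3.46 ± 0.49, 0.00076) and in the A. lyrata hybrid against A. thaliana (-3.42 ± 0.49, 0.00405), and was -1.48 ± 0.49 in the A. halleri hybrid (0.106). The part of either gene in those differences was not tested.

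**Figure D4:**
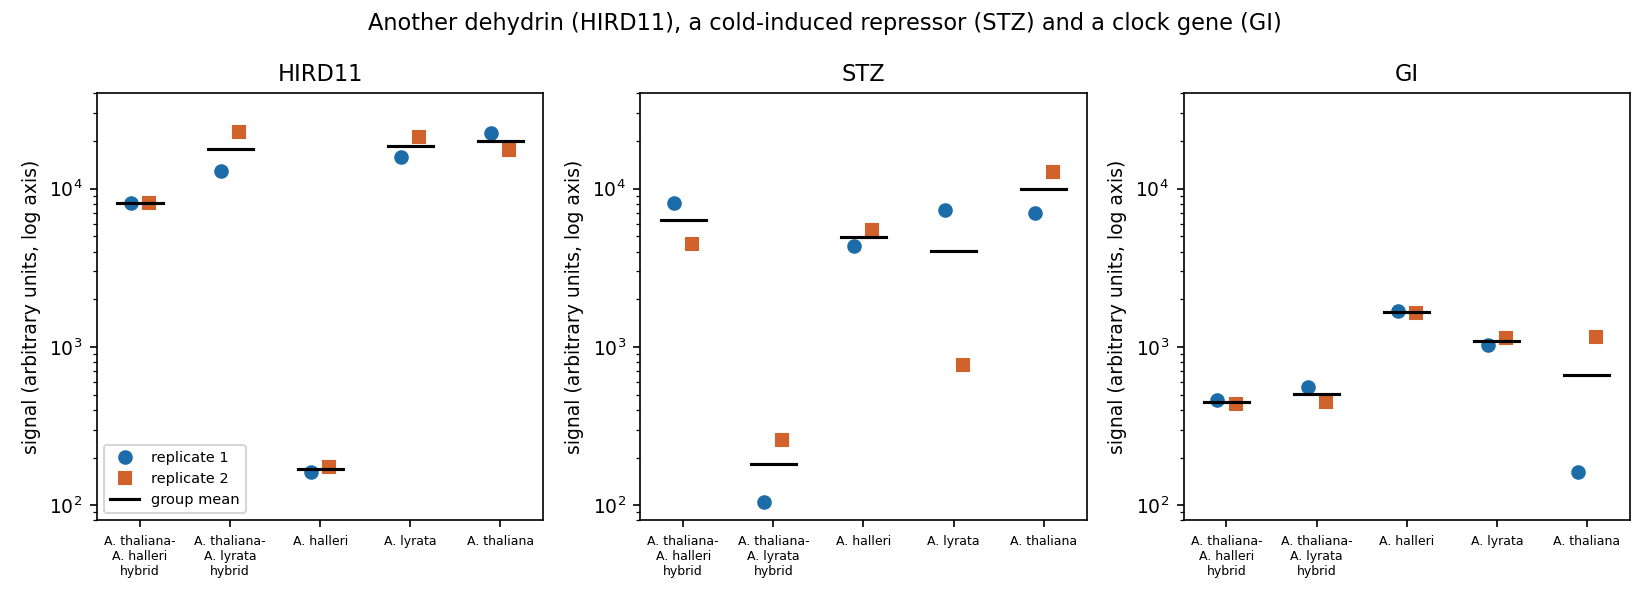
Scaled signal (arbitrary units, log axis) of the dehydrin gene HIRD11, the cold-induced repressor gene STZ and the clock gene GI on each of the 10 arrays, with circles for replicate 1, squares for replicate 2 and bars for group means. HIRD11 is lowest in A. halleri, STZ is lowest in the A. lyrata hybrid, and the A. thaliana arrays differ in GI.

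Across the 10 arrays, which share groups of 2, the log2 signals of COR15A and COR15B correlated with Pearson's r of 0.56 and those of COR47 and LTI30 with 0.70. The other 4 pairs lay between -0.29 and 0.35. Among tested probe sets with 1 gene, those most like COR15A over the 10 arrays were AT2G27360 (r = 0.948), AT5G59830 (0.946) and AT1G26665 (0.940). The nearest to COR15B were AT3G25150 (0.984), AR401 (0.980) and AT2G20420 (0.968). AR401, listed as AT1G66680, had mean signals of 2449 in A. halleri, 379 in A. lyrata and 766 in A. thaliana, in the same order as COR15B. COR47 was matched best by AT1G26580 (0.928), AT2G22660 (0.925) and GLX2-5 (0.924), a glyoxalase family gene with mean signals of 570 in the A. lyrata hybrid and 1489 in A. thaliana. LTI30 was matched best by AT1G80550 (0.924), the ubiquitin protease gene UBP18 (0.873) and AT3G26000 (0.866). None of these 12 genes is on the cold and drought lists. Only 5 of the 105 genes on those lists were tested and could have appeared here, so nothing is read from their absence. These coefficients describe 10 arrays, are the highest over the array, and carry no test.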

How the data were processed

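Total RNA of mature leaves was measured on Affymetrix arrays from 500 ng per sample. The authors deposited linear intensity signals for each probe set, and the submitters' processing notes name GCOS and MAS5. No version or genome build is stated in the sources. Precision is limited by the small number of arrays. Groups came from the sample titles.

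Arrays were brought to a common trimmed mean of 500. Of 22810 probe sets, 64 controls were left out, and 16679 were tested, those whose mean log2(signal + 9.24) in at least 1 group reached that of the 40th percentile (signal 104). The offset is the 10th percentile. R 4.3.3 and limma 3.58.1 (lmFit, eBayes with trend) were used on all 10 arrays (residual df 5, prior df 4.73), with Benjamini-Hochberg adjustment over all probe sets tested in a comparison. The mid-parent SE came from the delta method. The fit was tested on simulated data first. The difference of deviations from mid-parent was chosen after seeing the data.

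Probe sets were named from the platform annotation (13513 with 1 gene, 503 with several, 8730 unnamed here) and a gene table of assembly TAIR10.1. The 4 genes and the lists were chosen with earlier results of these data known. Other genes are named if called in a species or mid-parent comparison, at most 8 per list, together with the 3 genes most correlated with each of the 4. GI, WRKY53 and the leaf and root markers are given as marker values. No sequences of the 4 genes were used here.

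Replicate numbers did not pair the samples: differences between replicates 1 and 2 correlated between groups with r of -0.13 to 0.26. Nothing says whether replicates came from separate plants beyond the word biological in the labels. Other scalings, offsets, filters, blocks, subsets and the omission of each array were tried.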

Additional observations from a re-analysis of the deposited data

Results flagged for a closer look

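The effect of species against A. thaliana differed between A. halleri and A. lyrata in both neighbouring genes. COR15B was higher than A. thaliana on both A. halleri arrays and lower on both A. lyrata arrays, and the difference of the 2 effects, which is A. halleri minus A. lyrata, was 4.88 on the log2 scale (limma, adjusted p = 0.000158). COR15A was lower than A. thaliana in both species, and less so in A. halleri, with a difference of 3.95 (adjusted p = 0.00784). The COR15A call was lost with the deposited scale as a block (1.60, adjusted p = 0.285) and without replicate 2 of A. lyrata or of A. halleri. Its A. lyrata signal was near the weak end of the range, and the species differ in deposited scale on all arrays.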

How the results depend on the processing

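COR15A in A. lyrata against A. thaliana, COR15B in A. halleri and in A. lyrata against A. thaliana, COR15B in A. halleri against A. lyrata and COR15B in the A. halleri hybrid against A. halleri kept direction and call under all settings tried, including the omission of each array. No called difference changed sign. A fit of only the groups compared, which has fewer arrays to estimate the spread, lost these calls at unchanged values: COR15A at -2.96 (adjusted p = 0.159) in the A. halleri hybrid, -3.22 (0.105) in the A. lyrata hybrid and -2.34 (0.0787) in A. halleri, and COR47 at -2.78 (0.0755) in the A. lyrata hybrid and -1.51 (0.0760) in A. lyrata, each against A. thaliana. It also lost COR15B in the A. halleri hybrid (-2.56, 0.118) and COR47 in the A. lyrata hybrid (-2.22, 0.0756) against mid-parent. A threshold of 0.01 dropped the calls at -2.96, -3.22, -2.34, -1.51, -2.56 and -2.22 in the same list, and COR15A in the A. lyrata hybrid against A. lyrata (3.07). COR15A in the A. halleri hybrid against A. thaliana was also lost with quantile normalization (-3.11), an offset of 1 (-2.97), no filter and no trend (-2.96 each), and COR15B in that hybrid against mid-parent with no trend (-2.56). Within the arrays of lower deposited scale COR15A in the A. lyrata hybrid against A. thaliana was -2.04, and with the deposited scale as a block COR15A in A. halleri against A. lyrata was 1.60. Both values follow from the A. thaliana replicates, which differed by 2.35 in COR15A and alone cover both deposited scales. The cause of that replicate difference was not tested.

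With the replicate block, COR15A in the A. halleri hybrid against A. thaliana was -2.96 (adjusted p = 0.0510, call lost) and COR47 in the A. lyrata hybrid against A. lyrata was -1.27 (0.0462, call gained); the block changed no other call.

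With single arrays left out, COR47 ranged from -2.17 to -0.85 in A. lyrata, from -2.52 to -1.21 in A. halleri and from -3.44 to -2.13 in the A. lyrata hybrid, each against A. thaliana, and from -2.73 to -1.76 in that hybrid against mid-parent. COR15A ranged from -3.51 to -1.17 in A. halleri, from -4.39 to -2.04 in the A. lyrata hybrid and from -4.13 to -1.79 in the A. halleri hybrid, each against A. thaliana, and from 3.08 to 4.81 in A. halleri and 2.21 to 3.93 in the A. lyrata hybrid against A. lyrata. COR15B in the A. halleri hybrid against mid-parent ranged from -2.88 to -2.24.

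Differences that were not called changed sign in places. On the spike-in scale COR47 in A. halleri against A. lyrata was 0.19, LTI30 in the A. lyrata hybrid against A. lyrata 0.085 and COR15A in the A. halleri hybrid against A. halleri 0.43. With the deposited scale as a block, COR47 and LTI30 in A. halleri against A. lyrata were 0.95 and 2.24, COR15A and COR15B in the A. halleri hybrid against the A. lyrata hybrid -2.09 and -0.83, COR15B in the A. lyrata hybrid against mid-parent 0.18 and LTI30 in the A. halleri hybrid against mid-parent 0.48, the last 2 also within 1 deposited scale. With the mid-parent on the log2 scale COR15B in the A. lyrata hybrid was 0.043. With single arrays left out, LTI30 ranged from -2.85 to 0.48 in A. halleri and from -2.32 to 1.01 in the A. lyrata hybrid against A. lyrata, from -0.17 to 2.04 between the hybrids, and from -2.57 to 0.48 in the A. halleri hybrid against mid-parent. COR15B ranged from -1.21 to 0.049 in the A. halleri hybrid against A. thaliana and from -0.83 to 0.18 in the A. lyrata hybrid against mid-parent, and COR15A from -0.021 to 0.53 between the hybrids. LTI30 could not be tested with the filter at the 60th percentile. A group of 1 array was assumed to vary like the others.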
